A study of Danio rerio with 5 samples.

Results

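The genes described here are 46 zebrafish genes that encode the proteins of glycolysis and of lactate handling. They cover glucose uptake, the 10 enzyme steps from hexokinase to pyruvate kinase, lactate dehydrogenase, the lactate transporters, the pyruvate dehydrogenase kinases and the bifunctional enzymes that set fructose-2,6-bisphosphate. The rule was a fixed list of symbols, drawn up with earlier results of these data known, and all 46 symbols were found among the 30647 genes of each library. Of these, 36 reached 1 RPKM (reads scaled to exon length and to the reads of a library) in at least 2 of the 5 libraries and were tested for a difference between genotypes. The other 10 (*gpib*, *pfkma*, *pfkmb*, *aldoab*, *aldoca*, *pgam2*, *pkmb*, *ldhbb*, *slc16a1a* and *pdk3b*) did not exceed 0.617 RPKM in any library.

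Glycolysis converts glucose to pyruvate in the cytosol, and lactate dehydrogenase then reduces pyruvate to lactate, which leaves the cell through monocarboxylate transporters. Phosphofructokinase is the main point of control, and fructose-2,6-bisphosphate, made and removed by the PFK-2/FBPase-2 enzymes, is its strongest activator. Pyruvate dehydrogenase kinases switch off pyruvate dehydrogenase, the enzyme that uses pyruvate within the mitochondrion. Teleosts kept additional gene copies from a whole-genome duplication, so most steps have a pair of paralogs named a and b, and tumors of many kinds are known for a high use of this pathway.

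Tumor cells were taken from zebrafish that carry *MYCN* and *EGFP* transgenes, both driven by the *dβh* promoter of noradrenergic cells, and that develop neuroblastoma. The question was how tumors differ between fish without functional *lmo1* (*lmo1*-/-, 3 libraries) and fish homozygous for the TATA version of a GATA site in the first intron of *lmo1* (TATA/TATA, 2 libraries). All 5 libraries carry *dβh*:*EGFP* and *MYCN*, so *MYCN* is shared by both genotypes, and EGFP+ cells were sorted from dissociated tumors before RNA extraction. The *lmo1*-/- line came from a founder with a CRISPR-Cas9 deletion in exon 2, and the TATA line was made by TALEN cutting with an oligonucleotide donor that also changed neighboring bases. The tumors came from juvenile fish. Their exact age and the number of fish behind each library were not given in the sources used here, and p-values therefore measure only the spread between these libraries.

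The targeted gene, *lmo1*, stood at 24.6, 21 and 41.9 RPKM in *lmo1*-/- and 13.6 and 12.7 RPKM in TATA/TATA libraries; the counts do not separate mutant from intact transcripts, so its level does not check the knockout label. Each library held 48144549 to 55782865 counts on genes. Sympathoadrenal markers, which define the labeled cell type, were detected in full (13 of 13), with a summed level of 1747 to 2512 RPKM in *lmo1*-/- and 1357 to 1447 RPKM in TATA/TATA libraries. Of the 13, 5 were lower in TATA/TATA tumors (*dbh*, *th*, *hand2*, *slc18a2* and *stmn2a*) and 0 were higher. Of all tested genes, 16.7% were lower. The libraries also differed in ways other than the pathway. Ribosomal protein genes took 34.8% to 42.8% of counts in *lmo1*-/- and 21.5% to 21.8% in TATA/TATA libraries, and the TATA/TATA libraries differed far less from each other (median absolute log2 difference 0.0893) than any pair of *lmo1*-/- libraries (0.374 to 0.395). Of 21 tested macrophage markers, 20 were higher in TATA/TATA tumors, with a summed level of 3305 to 3463 RPKM against 123 to 214 RPKM, and 7 of 7 hepatocyte genes were higher as well (97.8 to 99.0 against 0.486 to 5.48 RPKM). Of all tested genes, 19.9% were higher. The hepatocyte genes *tfa*, *apoa2*, *fgb*, *fga* and *cp* reached the level for testing only through TATA/TATA. So did the macrophage markers *mpeg1.2*, *mfap4*, *lcp1*, *ptprc* and *cybb*, and for all of these a large difference was built in. The part of these differences in the results below was not tested, and in bulk samples fewer cells of a type and less RNA per cell cannot be told apart.

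Of the 46 glycolysis and lactate genes, 18 were more abundant in TATA/TATA tumors and 3 were less abundant. Together the 46 genes took 0.431%, 0.418% and 0.494% of counts in the *lmo1*-/- libraries and 1.04% and 1.01% in the TATA/TATA libraries, so both TATA/TATA libraries lay above all 3 *lmo1*-/- libraries. Among the 36 tested genes, the lower ones were *tpi1a*, *pgam1b* and *pfkfb4b*, and 15 did not pass an adjusted p of 0.05 in edgeR's quasi-likelihood test. In percent, 50% of the tested genes were higher, against 19.9% of all 13484 tested genes, and 8.33% were lower, against 16.7%. The median log2 fold change (TATA/TATA over *lmo1*-/-) was 0.60, and it was -0.05 over all tested genes. At 15 steps, the gene with the highest mean RPKM over the libraries was higher at 10, lower at 1 (*pfkfb4b*) and not past the threshold at 4 (*aldoaa*, *pgam1a*, *ldhba* and *pdk1*). At 14 steps the same gene led in every library, but at glucose uptake *slc2a1a*, which did not pass, led in all 3 *lmo1*-/- libraries and *slc2a3a*, which did, in both TATA/TATA libraries.

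Some of the tested genes passed the level filter through 1 genotype alone: *slc2a1b*, *gapdh*, *pklr*, *slc16a3*, *pdk2b* and *pfkfb3* through TATA/TATA, and *pfklb* and *pdk2a* through *lmo1*-/-. A difference between genotypes helps such genes to pass, although *pdk2b* passed with overlapping genotypes (log2 fold change -0.16, adjusted p = 0.87 in edgeR). The counts above therefore describe the genes and support nothing. Among the 21 genes with a mean of at least 5 RPKM over all libraries, 11 were higher and 2 lower, with a median log2 fold change of 0.78, while 14.1% of all genes at that level were higher and 15.6% lower, with a median of -0.04.

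**Figure D1:**
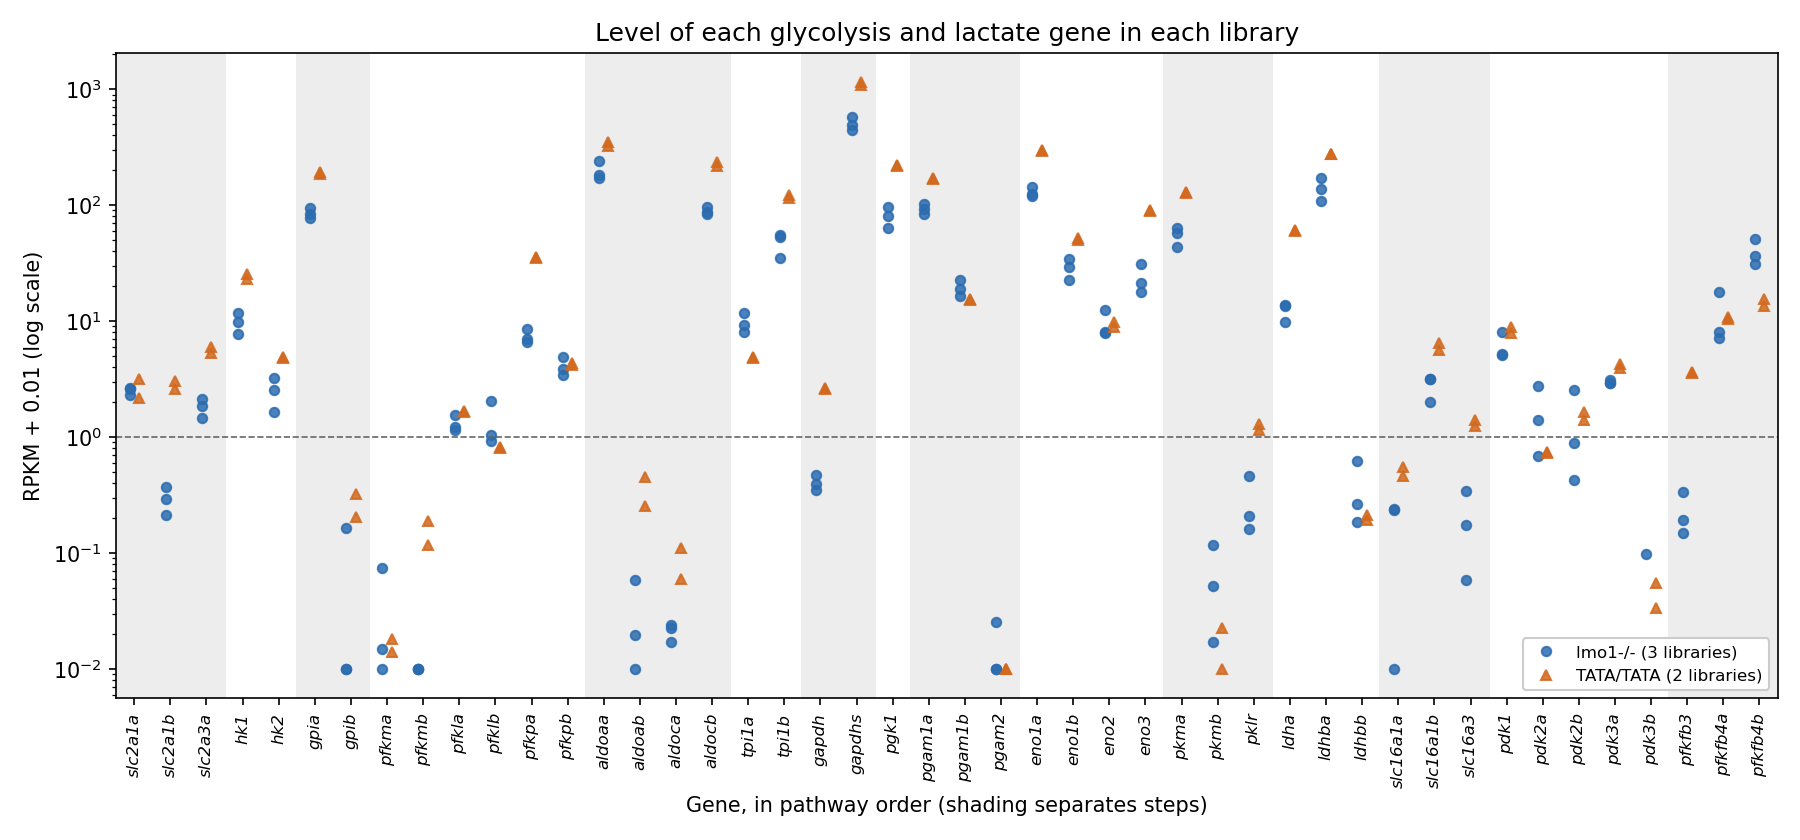
Level of each of the 46 genes in each library, as RPKM plus 0.01 on a log axis, in pathway order, with circles for the 3 lmo1-/- libraries, triangles for the 2 TATA/TATA libraries and a dashed line at 1 RPKM. The most abundant gene, gapdhs, stood at 449 to 574 RPKM in lmo1-/- and 1092 to 1146 RPKM in TATA/TATA libraries. Sums over the genes of a step, which are not drawn, were higher in TATA/TATA without overlap at 13 of 15 steps. Among all tested single genes, 54.2% were higher without overlap in RPKM.

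Fold changes below were computed after scaling by trimmed mean of M values (TMM), which sets the bulk of genes to no change, whereas RPKM was scaled by the authors to each library's reads. RPKM ratios between genotypes are therefore larger than fold changes for a gene that is higher. With the authors' library totals in place of TMM, the median of all tested genes moved from -0.05 to 0.41 and that of the glycolysis genes from 0.60 to 1.06, the counts became 23 higher and 2 lower, and the corresponding shares of all genes were 29.7% and 6.44%. On TMM-scaled counts, the genotypes did not overlap for 32 of 36 genes, 23 of them higher and 9 lower in TATA/TATA, where 32.3% and 33.0% of all tested genes did so. In RPKM, 25 genes were higher without overlap, against 54.2% of all tested genes, and 4 were lower, against 14.1%, so a separation in RPKM alone says little about a gene that is higher.

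**Figure D2:**
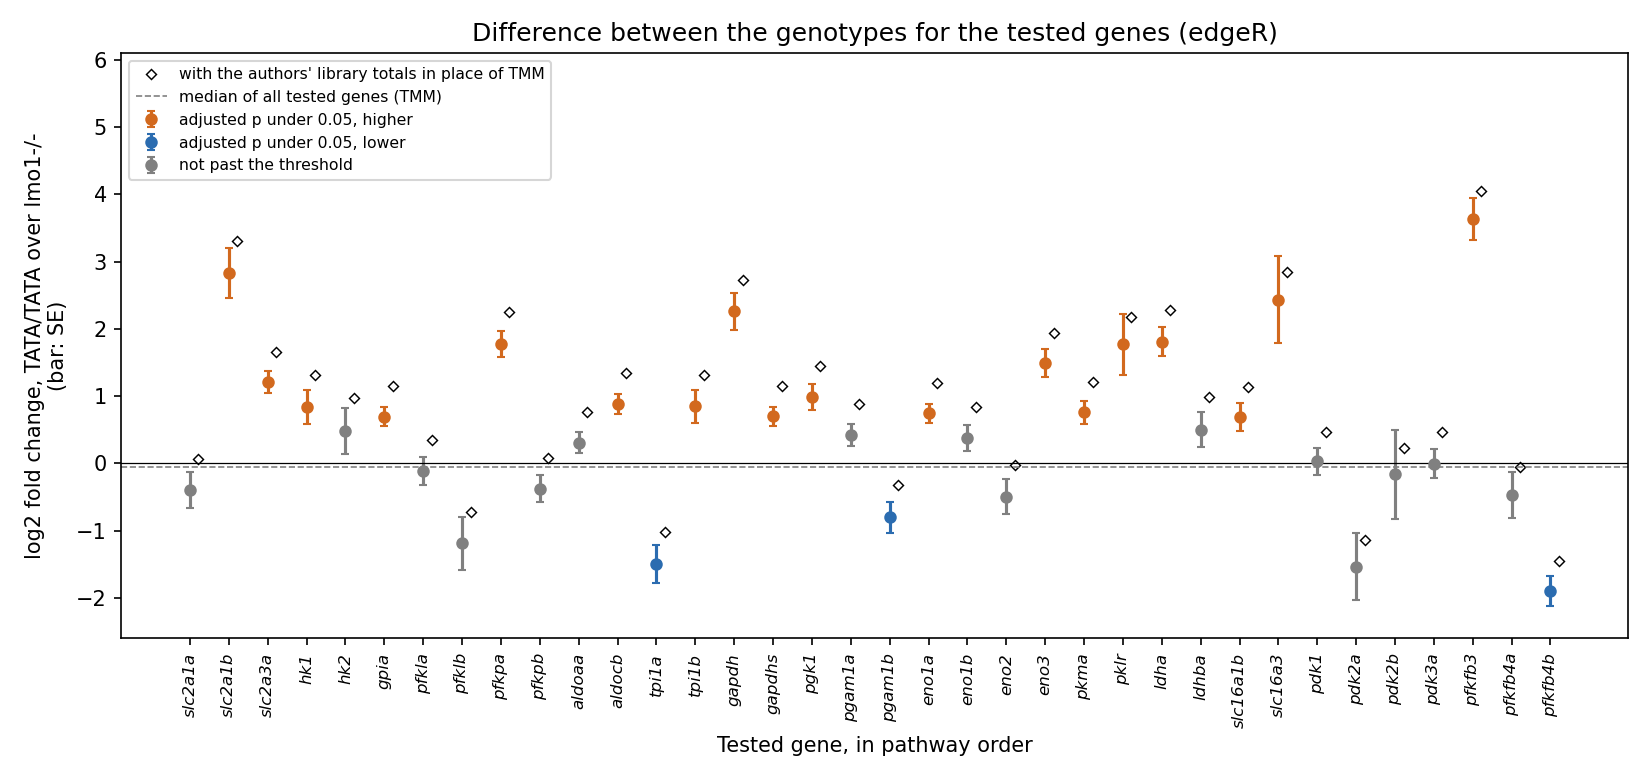
The log2 fold change of each tested gene, TATA/TATA over lmo1-/-, from edgeR with TMM scaling (filled circles, bars are SE), and with the authors' library totals (open diamonds). Of 36 genes, 18 lie above 0 past the threshold, with pfkfb3 highest at 3.63, and 3 lie below 0, with pfkfb4b lowest at -1.89. The gene pfkfb3 was tested only through TATA/TATA, so a large change was built in. The diamonds of slc2a1a, pfkla, pfkpb, pdk2b and pdk3a lie on the other side of 0 from their circles.

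Glucose enters cells through facilitative transporters of the SLC2A (GLUT) family. The GLUT1 gene *slc2a1a* stood at 2.31, 2.59 and 2.65 RPKM in *lmo1*-/- and 3.15 and 2.15 RPKM in TATA/TATA libraries, so the genotypes overlapped in RPKM. On TMM-scaled counts *slc2a1a* was lower in TATA/TATA without overlap. Its paralog *slc2a1b* stood at 0.358, 0.284 and 0.204 RPKM against 2.57 and 3.03 RPKM, with no overlap, and was 7.13-fold higher in TATA/TATA tumors (log2 fold change 2.83, SE 0.37, adjusted p = 0.0028 in edgeR). The GLUT3 gene *slc2a3a*, a high-affinity transporter of neurons in mammals, stood at 1.83, 1.46 and 2.13 RPKM against 6.03 and 5.35 RPKM. It was 2.31-fold higher (log2 fold change 1.21, SE 0.16, adjusted p = 0.0029 in edgeR), with an adjusted p of 0.053 without TATA/TATA replicate 1. Within each library the ratio of *slc2a1a* to *slc2a1b* was 6.46, 9.13 and 13 in *lmo1*-/- and 1.23 and 0.71 in TATA/TATA tumors, and *slc2a1b* exceeded its paralog in TATA/TATA replicate 2. The change of *slc2a1a* was -0.40 (SE 0.26, adjusted p = 0.29 in edgeR) and became 0.07 with the authors' library totals.

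Hexokinase traps glucose as glucose-6-phosphate. The main gene, *hk1*, stood at 11.8, 9.80 and 7.73 RPKM in *lmo1*-/- and 25.6 and 23.1 RPKM in TATA/TATA libraries, with no overlap, and held 78.5% to 84.3% of the hexokinase RPKM in every library. It changed by 0.84 on the log2 scale (SE 0.25, adjusted p = 0.045 in edgeR). This call was close to the threshold: the adjusted p was 0.08 without *lmo1*-/- replicate 2, 0.22 and 0.17 without TATA/TATA replicates 1 and 2, and 0.053 with replicate number as a block. The second isoform, *hk2*, which many tumors are known to raise, stood at 3.23, 2.53 and 1.63 RPKM against 4.77 and 4.89 RPKM, and changed by 0.48 on the log2 scale (SE 0.34, adjusted p = 0.32 in edgeR). With the authors' library totals *hk2* changed by 0.97 and passed (adjusted p = 0.045 in edgeR). Glucose-6-phosphate isomerase, the next step, was almost wholly *gpia*, at 83.3, 77.0 and 95.2 RPKM against 192 and 187 RPKM. The groups of *gpia* did not overlap, its change was 0.70 on the log2 scale (SE 0.14, adjusted p = 0.011 in edgeR), and the adjusted p rose to 0.15 and 0.14 without TATA/TATA replicates 1 and 2.

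Phosphofructokinase, the committed step, showed the largest change among the leading genes of the 10 enzyme steps. The platelet-type gene *pfkpa* stood at 8.61, 7.06 and 6.59 RPKM in *lmo1*-/- and 35.5 and 34.9 RPKM in TATA/TATA libraries, which was 3.42-fold higher after scaling (log2 fold change 1.78, SE 0.20, adjusted p = 0.0016 in edgeR). Its range over leave-one-out fits was 1.67 to 1.89, and it passed the threshold in each. The paralog *pfkpb* did not follow, at 4.89, 3.39 and 3.82 RPKM against 4.37 and 4.17 RPKM (log2 fold change -0.38, SE 0.20, adjusted p = 0.19 in edgeR, 0.08 on the log2 scale with the authors' library totals). The ratio of *pfkpa* to *pfkpb* within a library was therefore 1.76, 2.08 and 1.73 in *lmo1*-/- and 8.13 and 8.37 in TATA/TATA tumors. Of the liver-type genes, *pfkla* stood at 1.13 to 1.54 RPKM in *lmo1*-/- and 1.62 to 1.68 RPKM in TATA/TATA libraries, and *pfklb* at 2.06, 0.908 and 1.04 against 0.792 and 0.817 RPKM, a change of -1.19 on the log2 scale (SE 0.40, adjusted p = 0.062 in edgeR). *pfklb* passed as lower in DESeq2 (adjusted p = 0.02). In edgeR it passed without *lmo1*-/- replicate 1 (adjusted p = 0.028) or 3 (0.04), and with the replicate block, which also sets *lmo1*-/- replicate 3 aside. The muscle-type genes were close to absent. *pfkma* did not exceed 0.0637 RPKM, while *pfkmb* had 0 counts in every *lmo1*-/- library and 38 and 22 counts in the TATA/TATA libraries. The mean TATA/TATA RPKM of *pfkmb* (0.144) was 8.39-fold that of a floor of 3 counts in an *lmo1*-/- library. This ratio is of RPKM, without TMM scaling, and is lower for TATA/TATA replicate 2 alone. When every gene with any count entered the fit, of which 25.4% were called in either direction, *pfkmb* had an adjusted p of 0.014 in edgeR, and 0.13 and 0.077 without TATA/TATA replicates 1 and 2.

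Aldolase splits fructose-1,6-bisphosphate into the triose phosphates, and its genes *aldoaa* and *aldocb* were both abundant. The brain-type gene *aldocb* stood at 87.5, 84.7 and 96.5 RPKM in *lmo1*-/- and 237 and 218 RPKM in TATA/TATA libraries, without overlap, a change of 0.89 on the log2 scale (SE 0.14, adjusted p = 0.0056 in edgeR). The more abundant *aldoaa* stood at 183, 172 and 242 RPKM against 349 and 325 RPKM, again without overlap in RPKM, but its log2 fold change of 0.31 (SE 0.15) did not pass (adjusted p = 0.16 in edgeR). It did pass in DESeq2 and with the authors' library totals (0.76, adjusted p = 0.02 in edgeR). The share of aldolase RPKM from *aldocb* was 28.5% to 33.0% in *lmo1*-/- and 40.2% to 40.4% in TATA/TATA tumors. Without TATA/TATA replicates 1 and 2, the adjusted p of *aldocb* was 0.096 and 0.073.

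The paralogs of triosephosphate isomerase, which interconverts the triose phosphates, changed in opposite directions. *tpi1b* stood at 35.1, 53.2 and 55.0 RPKM in *lmo1*-/- and 116 and 122 RPKM in TATA/TATA libraries (log2 fold change 0.85, SE 0.24, adjusted p = 0.038 in edgeR). *tpi1a* stood at 8.07, 11.8 and 9.33 RPKM against 4.89 and 4.76 RPKM (log2 fold change -1.50, SE 0.29, adjusted p = 0.0097 in edgeR). Neither gene overlapped between genotypes, and *tpi1b* held 81.3% to 85.5% of the RPKM of this step in *lmo1*-/- and 96.0% and 96.2% in TATA/TATA tumors. In the RefSeq annotation of zebrafish, *tpi1a* is the direct neighbor of *eno2*, a neuronal-type enolase whose values are given below. The adjusted p of *tpi1b* was 0.063 without *lmo1*-/- replicate 3, and without TATA/TATA replicates 1 and 2 it was 0.16 and 0.2 for *tpi1b* and 0.077 and 0.079 for *tpi1a*.

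Glyceraldehyde-3-phosphate dehydrogenase, the oxidation step, was the most abundant step of the pathway, and nearly all of it came from *gapdhs*, with 99.8% to 99.9% of its RPKM in each library. *gapdhs* stood at 487, 449 and 574 RPKM in *lmo1*-/- and 1146 and 1092 RPKM in TATA/TATA libraries. The groups were well separated, and *gapdhs* changed by 0.70 on the log2 scale (SE 0.14, adjusted p = 0.012 in edgeR). Its minor partner *gapdh*, the gene most often used as a reference in expression assays, stood at 0.460, 0.340 and 0.382 RPKM against 2.57 and 2.64 RPKM and was 4.8-fold higher (log2 fold change 2.26, SE 0.28, adjusted p = 0.0021 in edgeR). Phosphoglycerate kinase, the ATP-forming step that follows, has a single gene here. *pgk1* stood at 64.2, 81.1 and 97.4 RPKM against 224 and 217 RPKM, with no overlap (log2 fold change 0.99, SE 0.19, adjusted p = 0.011 in edgeR). Without TATA/TATA replicates 1 and 2, the adjusted p was 0.17 and 0.14 for *gapdhs* and 0.095 and 0.091 for *pgk1*.

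Phosphoglycerate mutase moves the phosphate group of 3-phosphoglycerate, and its paralogs differed in the sign of their change. *pgam1a* stood at 83.2, 93.3 and 102 RPKM in *lmo1*-/- and at 170 and 172 RPKM in TATA/TATA libraries, with a log2 fold change of 0.42 (SE 0.16) that did not pass (adjusted p = 0.096 in edgeR). It did pass in DESeq2, without *lmo1*-/- replicate 2 and with the authors' library totals (0.88, adjusted p = 0.0066 in edgeR). *pgam1b* stood at 22.6, 18.9 and 16.4 RPKM against 15.2 and 15.6 RPKM, lower without overlap (log2 fold change -0.80, SE 0.23, adjusted p = 0.037 in edgeR). The ratio of *pgam1a* to *pgam1b* within a library was 3.68, 4.93 and 6.20 in *lmo1*-/- and 11.2 and 11 in TATA/TATA tumors. The *pgam1b* call was lost in several settings: with the authors' library totals the log2 fold change was -0.33 (adjusted p = 0.25), and the adjusted p was 0.056 and 0.093 without *lmo1*-/- replicates 1 and 2, 0.22 and 0.19 without TATA/TATA replicates 1 and 2, and 0.062 among genes of at least 5 RPKM. The muscle mutase *pgam2* had 1 count in all 5 libraries together.

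Enolase makes phosphoenolpyruvate and had 4 expressed genes. *eno1a*, the leading gene with 66.1% to 70.2% of enolase RPKM, stood at 125, 119 and 143 RPKM in *lmo1*-/- and 301 and 293 RPKM in TATA/TATA libraries (log2 fold change 0.74, SE 0.14, adjusted p = 0.0094 in edgeR). *eno3*, the ortholog of the mammalian muscle enolase, stood at 17.9, 21.5 and 31.1 RPKM against 89.3 and 90.9 RPKM and was 2.82-fold higher (log2 fold change 1.49, SE 0.21, adjusted p = 0.0033 in edgeR). Both genes were separated between genotypes, and the call of *eno3* held in every setting, with leave-one-out values of 1.34 to 1.68, whereas the adjusted p of *eno1a* was 0.13 without either TATA/TATA library. The summed level of 21 skeletal muscle markers was 8.78 to 12.8 RPKM in *lmo1*-/- and 7.66 to 7.82 RPKM in TATA/TATA libraries, most of it from *mylpfb* (5.28 to 8.02 RPKM over all libraries). Of the 3 tested markers 2 were lower, against 16.7% of all tested genes. The sarcomere gene *neb*, named after its values were seen and below the level filter, went the other way, with 1, 1 and 4 counts against 40 and 64 (adjusted p = 0.0089 in edgeR over every gene with any count, 0.07 and 0.16 without TATA/TATA replicates 1 and 2). The part of muscle cells in *eno3* was not tested. *eno1b* stood at 22.8, 29.3 and 34.1 RPKM against 52.5 and 50.1 RPKM (log2 fold change 0.38, adjusted p = 0.18 in edgeR). With the authors' library totals *eno1b* changed by 0.84 and passed (adjusted p = 0.024 in edgeR). The neuronal-type *eno2* stood at 12.5, 7.90 and 8.03 RPKM against 9.77 and 8.88 RPKM, and its genotypes overlapped in RPKM (log2 fold change -0.49, adjusted p = 0.2 in edgeR). On TMM-scaled counts *eno2* was lower in TATA/TATA without overlap.

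Pyruvate kinase, the last enzyme of the pathway, was almost wholly *pkma*. This gene stood at 64.1, 43.8 and 57.8 RPKM in *lmo1*-/- and 129 and 127 RPKM in TATA/TATA libraries, without overlap (log2 fold change 0.76, SE 0.17, adjusted p = 0.018 in edgeR). The liver and red-cell gene *pklr* stood at 0.199, 0.15 and 0.45 RPKM against 1.13 and 1.30 RPKM (log2 fold change 1.77, SE 0.45, adjusted p = 0.027 in edgeR). Hepatocyte genes were higher in the same libraries, whereas of 4 tested erythroid markers 3 were lower and 0 higher, in edgeR, at an unadjusted p under 0.05 and in DESeq2. The lower markers were globin genes, and 16.7% of all tested genes were lower in edgeR. The erythroid transcription factor gene *gata1a*, named after its values were seen and below the level filter, had 22, 1 and 1 counts against 170 and 134 (log2 fold change 3.54, adjusted p = 0.0496 in edgeR over every gene with any count, 0.12 without *lmo1*-/- replicate 2, and 0.21 and 0.17 without TATA/TATA replicates 1 and 2). The part of either cell type in *pklr* was not tested. The adjusted p was 0.15 for *pkma* without either TATA/TATA library, and for *pklr* it was 0.051 and 0.059 without *lmo1*-/- replicates 1 and 2 and 0.15 and 0.21 without TATA/TATA replicates 1 and 2.

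At lactate dehydrogenase, the gene of the A subunit was higher in TATA/TATA tumors, and that of the B subunit did not pass the test with TMM scaling. *ldha*, whose enzyme favors the reduction of pyruvate, stood at 9.87, 13.9 and 13.6 RPKM in *lmo1*-/- and 59.3 and 61.3 RPKM in TATA/TATA libraries, and was 3.5-fold higher (log2 fold change 1.81, SE 0.22, adjusted p = 0.002 in edgeR). It passed the threshold in every setting, with leave-one-out values of 1.66 to 2.00. *ldhba*, whose enzyme favors the oxidation of lactate, remained the more abundant gene, at 172, 138 and 109 RPKM against 278 and 274 RPKM, but its log2 fold change of 0.50 (SE 0.26) did not pass (adjusted p = 0.19 in edgeR). With the authors' library totals *ldhba* changed by 0.98 and passed (adjusted p = 0.013 in edgeR). The share of *ldha* in lactate dehydrogenase RPKM was 5.41%, 9.11% and 11.1% in *lmo1*-/- and 17.6% and 18.3% in TATA/TATA tumors, without overlap. The other B gene, *ldhbb*, stood at 0.176 to 0.617 RPKM over all libraries.

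Of the 3 listed lactate transporter genes, the most abundant in RNA was *slc16a1b*, a gene for the proton-linked transporter MCT1. It stood at 3.15, 1.99 and 3.14 RPKM in *lmo1*-/- and 6.49 and 5.63 RPKM in TATA/TATA libraries (log2 fold change 0.69, SE 0.21, adjusted p = 0.048 in edgeR). *slc16a3*, the gene of the lactate exporter MCT4, stood at 0.0484, 0.163 and 0.330 RPKM against 1.39 and 1.23 RPKM and was 5.4-fold higher (log2 fold change 2.43, SE 0.65, adjusted p = 0.031 in edgeR). Neither gene overlapped between genotypes, and *slc16a1b* still held 77.9% and 76.0% of the RPKM of the 3 listed genes in TATA/TATA tumors. The paralog *slc16a1a* stood at 0, 0.223 and 0.229 RPKM against 0.456 and 0.540 RPKM. Both calls were weak: for *slc16a1b* the adjusted p was 0.072 and 0.062 without *lmo1*-/- replicates 2 and 3, 0.33 and 0.2 without TATA/TATA replicates 1 and 2, and 0.076 without the level filter, and for *slc16a3* it was 0.093 without *lmo1*-/- replicate 2 and 0.13 and 0.11 without TATA/TATA replicates 1 and 2.

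Of 4 tested pyruvate dehydrogenase kinase genes, 0 passed the test in edgeR, and 1 (*pdk2a*, lower) did so at an unadjusted p under 0.05 and in DESeq2. Among all tested genes, 36.6% passed in edgeR in either direction. In edgeR *pdk2a* also passed without the level filter (adjusted p = 0.045), with the replicate block (0.012) and without *lmo1*-/- replicate 2 (0.021). The block sets *lmo1*-/- replicate 3 aside, since no TATA/TATA library has that number. *pdk1*, the kinase that hypoxia is known to raise, stood at 5.15, 5.15 and 8.02 RPKM in *lmo1*-/- and 7.97 and 8.96 RPKM in TATA/TATA libraries, with overlap and a log2 fold change of 0.03 (adjusted p = 0.93 in edgeR). *pdk3a* stood at 3.08, 2.91 and 2.94 RPKM against 3.95 and 4.28 RPKM, and its sign changed with the scaling, from -0.00 to 0.47 with the authors' library totals. The *pdk2* paralogs varied within *lmo1*-/-: *pdk2a* stood at 1.39, 0.683 and 2.74 RPKM against 0.716 and 0.740 RPKM (log2 fold change -1.53, SE 0.50, adjusted p = 0.056 in edgeR), and *pdk2b* at 0.416, 0.885 and 2.55 RPKM against 1.38 and 1.63 RPKM. For both, *lmo1*-/- replicate 3 was the highest of the 5 libraries.

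The PFK-2/FBPase-2 genes held the gene with the largest rise and the gene with the largest fall among the 36 tested. The gene with the rise, *pfkfb3*, had passed the level filter through TATA/TATA alone, so a large change was built in. *pfkfb3*, the isoenzyme with the strongest kinase activity in mammals, had 51, 37 and 99 counts in *lmo1*-/- and 1175 and 1112 counts in TATA/TATA libraries, or 0.185, 0.138 and 0.325 RPKM against 3.62 and 3.58 RPKM. It was 12.4-fold higher (log2 fold change 3.63, SE 0.31, adjusted p = 0.0007 in edgeR), with leave-one-out values of 3.46 to 3.98. *pfkfb4b*, the most abundant of these genes in every library, went the other way, at 31.0, 36.7 and 51.2 RPKM in *lmo1*-/- and 13.5 and 15.6 RPKM in TATA/TATA libraries. It changed by -1.89 on the log2 scale (SE 0.22, adjusted p = 0.0019 in edgeR), or 3.72-fold lower, and it stayed past the threshold in every setting, at -1.45 with the authors' library totals. The paralog *pfkfb4a* stood at 7.98, 7.20 and 17.9 RPKM against 10.8 and 10.4 RPKM, with overlap in RPKM (log2 fold change -0.47, SE 0.34, adjusted p = 0.33 in edgeR). On TMM-scaled counts *pfkfb4a* was lower in TATA/TATA without overlap. Among these 3 listed genes, *pfkfb4b* held 79.2%, 83.4% and 73.8% of RPKM in *lmo1*-/- and 48.4% and 52.7% in TATA/TATA tumors. The share of *pfkfb3* was 0.314% to 0.472% and then 13% and 12.1%. Other genes of this enzyme family were outside the list and not counted in these shares. Of them, *pfkfb1* stood at 6.41, 6.73 and 8.18 RPKM against 3.75 and 4.81 RPKM, and *pfkfb2b* at 2.57, 1.47 and 1.42 RPKM against 1.72 and 1.63 RPKM.

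**Figure D3:**
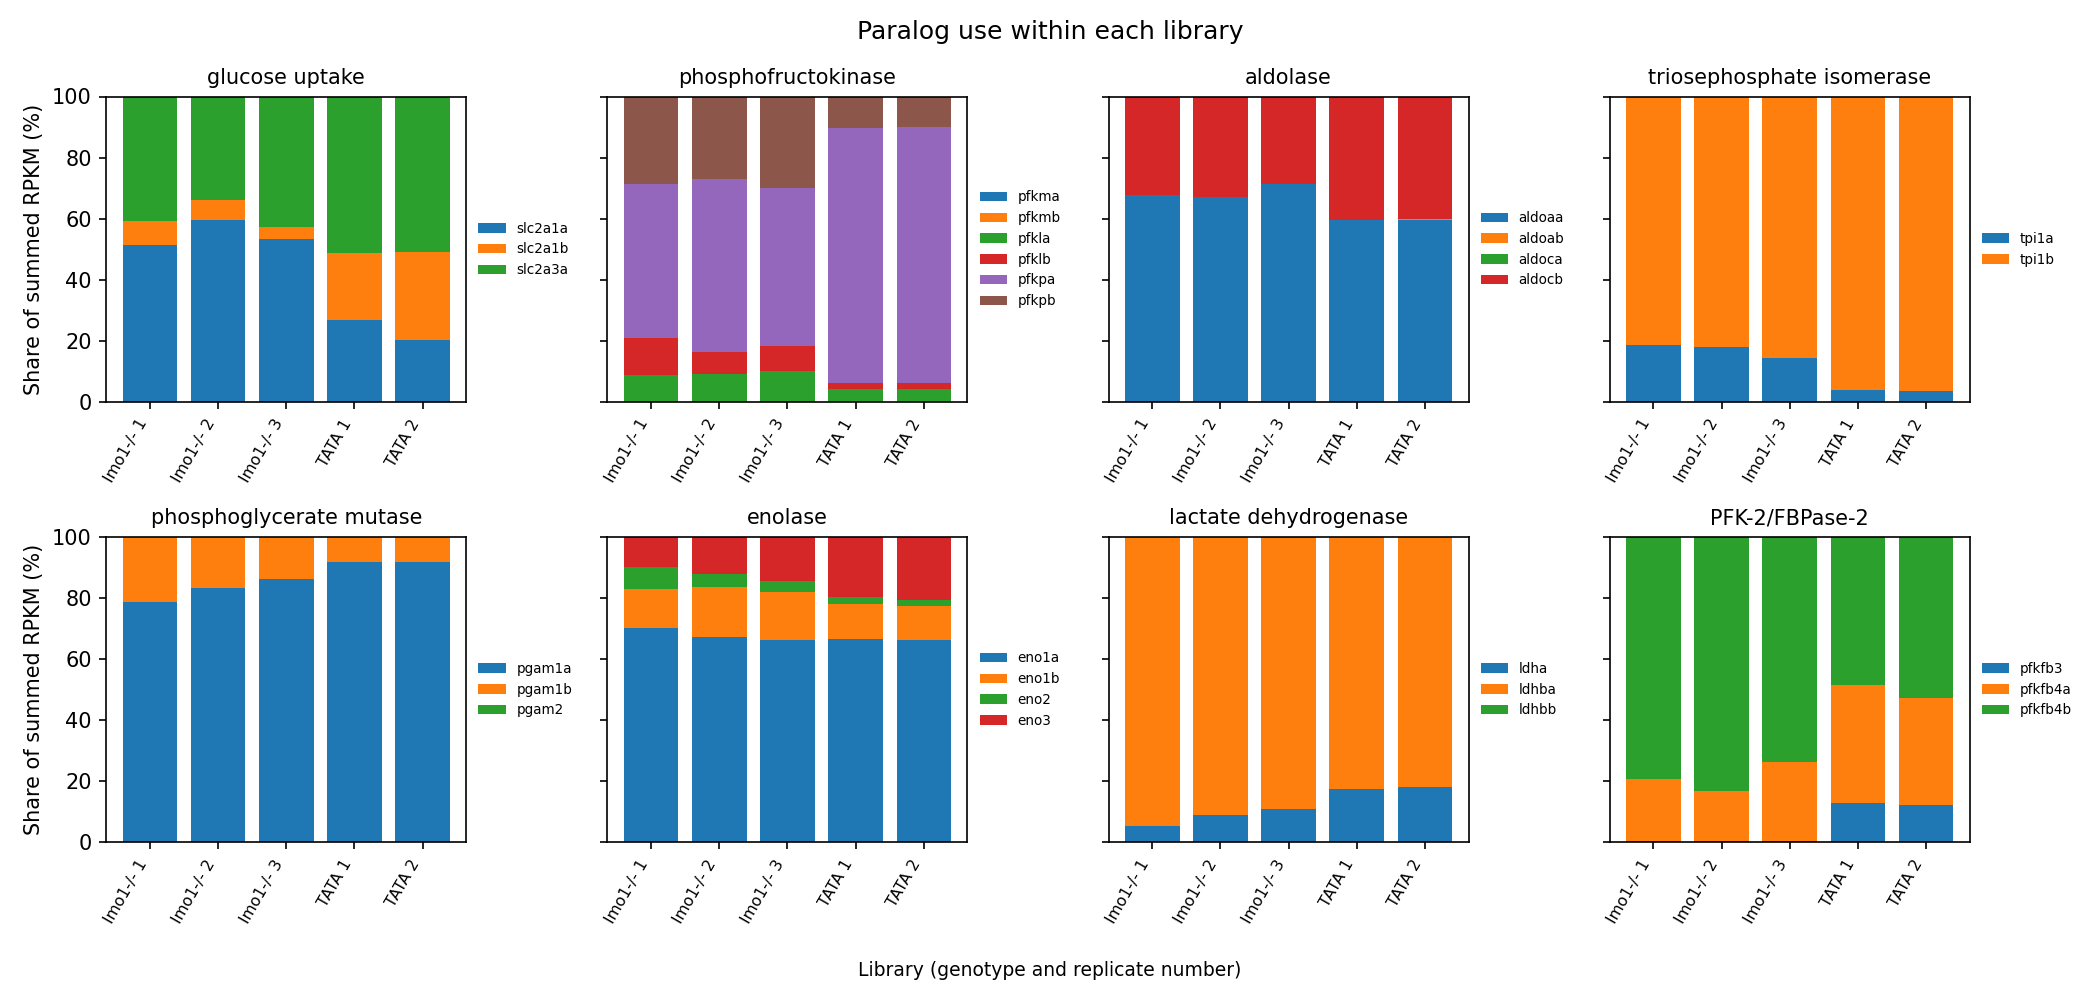
Share of the summed RPKM of the listed genes of a step that each gene held, in percent, for 8 steps and each of the 5 libraries. The share of pfkpa was 50.4% to 56.5% in lmo1-/- and 83.6% to 83.7% in TATA/TATA libraries, and that of pfkfb4b was 73.8% to 83.4% against 48.4% to 52.7%.

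Because paralogs of a step were counted in the same library, their ratio does not depend on the scaling of libraries. Over 32 pairs of tested genes within a step, the log2 ratio did not overlap between genotypes in 28, and 69.3% of all pairs of tested genes above 0 RPKM in every library did not overlap either. Many of the 32 pairs hold a gene that passed the level filter through 1 genotype alone. Genes also recur over pairs, so the count of pairs describes the genes and supports nothing. The share of the leading gene was compared at 14 steps by a two-sided exact permutation test over samples, in which 3 libraries against 2 cannot give a p below 0.1, and 9 steps reached that value (0.16 after Benjamini-Hochberg adjustment over the 14), so no shift in share could pass a threshold of 0.05. The largest shifts, as TATA/TATA minus *lmo1*-/-, were 30.8 percentage points for *pfkpa*, -28.2 for *pfkfb4b* and 13.2 for *tpi1b*, each at the smallest p that this exact test allows. The shares of *gpia*, *eno1a* and *pkma* moved by -0.07, -1.45 and -0.38 percentage points. All shares are of the listed genes of a step, and paralogs outside the list were not counted. Paralogs of a step can share reads, and the effect of such reads on the counts was not tested.

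The higher genes were also set apart by their level in *lmo1*-/- tumors, at a mean of 1 RPKM. In 13 of them the *lmo1*-/- mean was at least 1 RPKM, and their log2 fold changes ran from 0.69 to 1.81. In the other 5 (*slc2a1b*, *gapdh*, *pklr*, *slc16a3* and *pfkfb3*) no *lmo1*-/- library exceeded 0.460 RPKM, the TATA/TATA libraries lay at 1.13 to 3.62 RPKM, and the log2 fold changes ran from 1.77 to 3.63. A gene that low in *lmo1*-/- was tested only if both TATA/TATA libraries reached 1 RPKM, so a large change was built into this group. The 21 macrophage markers had log2 fold changes in a range that overlaps with these 5, from 2.27 (*mfap4*, which did not pass the test) to 5.88 with a median of 3.87, and the most abundant of them, the antigen-presentation gene *cd74a*, stood at 67.0, 54.5 and 76.7 RPKM in *lmo1*-/- and 1300 and 1331 RPKM in TATA/TATA libraries. Lymphoid (5 of 6 tested) and neutrophil markers (4 of 7) were higher in the same libraries, as were proliferation genes (7 of 8, median 1.86), against 19.9% of all tested genes. Among these, *cd4-1*, *lck*, *zap70*, *ikzf1*, *mpx*, *csf3r*, *top2a* and *ccnb1* were tested only through TATA/TATA. The part of these cell types in the level of the low genes was not tested.

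**Figure D4:**
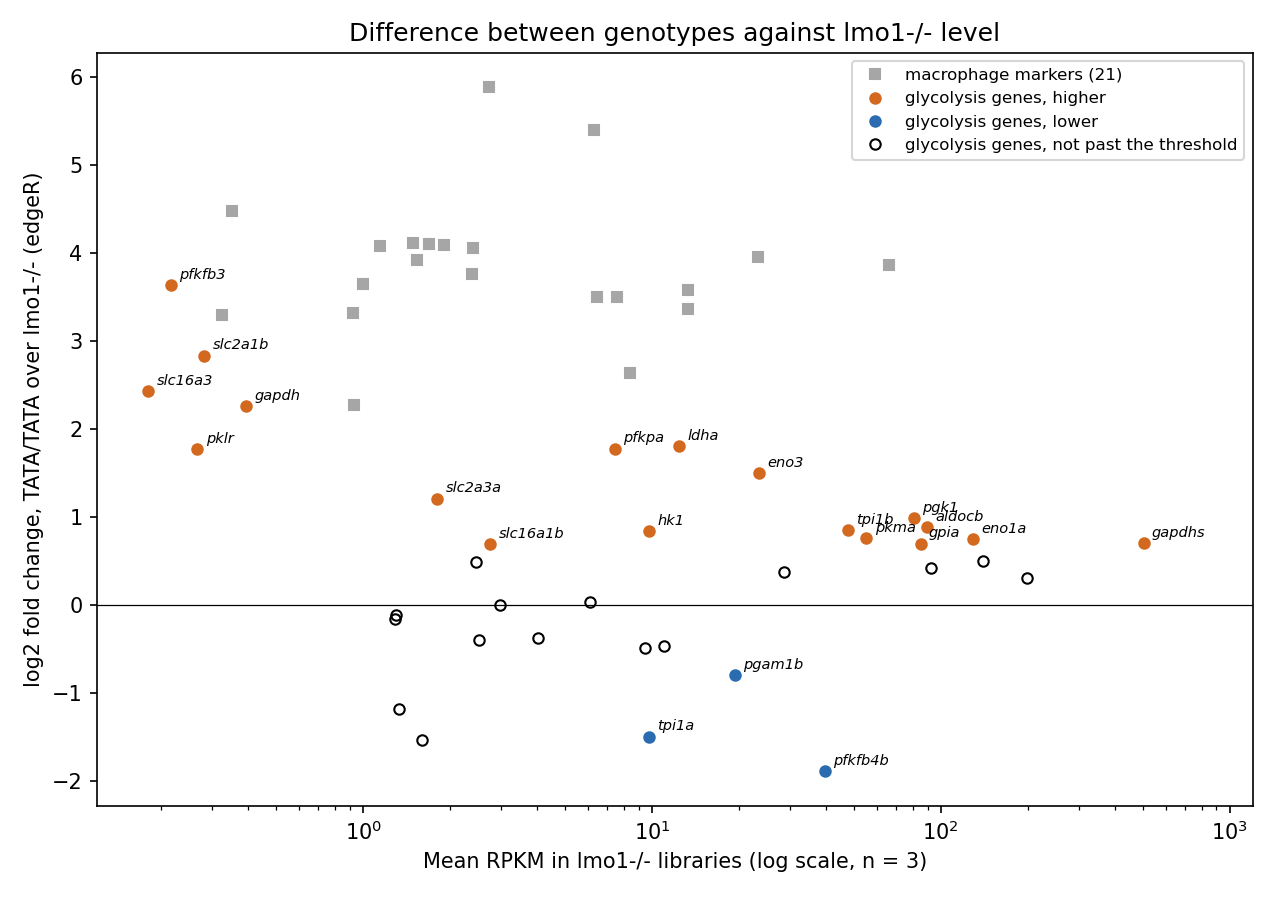
The log2 fold change of each tested glycolysis gene (circles) and of 21 macrophage markers (grey squares), TATA/TATA over lmo1-/-, against the mean RPKM of the 3 lmo1-/- libraries on a log axis. The 5 higher genes under 1 RPKM lie at 1.77 to 3.63, the 13 higher genes above it at 0.69 to 1.81, and the macrophage markers at 2.27 to 5.88.

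The glycolysis genes also differed in how much they varied within a genotype. The ratio of the highest to the lowest library had a median of 1.51 over the tested genes in *lmo1*-/- and 1.04 in TATA/TATA. In *lmo1*-/-, 7 genes varied by more than 2-fold (*pfklb*, *pklr*, *slc16a3*, *pdk2a*, *pdk2b*, *pfkfb3* and *pfkfb4a*), up to 6.82-fold for *slc16a3*, and 6 of the 7 were highest in replicate 3. In TATA/TATA none did, and the largest ratio was 1.47, for *slc2a1a*. The corresponding shares of all tested genes are not given, so these counts describe the genes and support nothing. Over all tested genes, the median absolute log2 difference was also larger between *lmo1*-/- libraries (0.374 to 0.395) than between TATA/TATA libraries (0.0893). The ratio of *slc16a3* in *lmo1*-/- rests on 15, 49 and 113 counts. A ratio over 3 libraries is apt to exceed a ratio over 2, and it was not established whether the TATA/TATA libraries came from separate fish.

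Genes of the pathways that adjoin glycolysis were counted against 19.9% higher and 16.7% lower among all tested genes. In the list of pyruvate dehydrogenase and mitochondrial pyruvate entry, 0 of 9 tested genes were higher and 1 was lower in edgeR, with a median log2 fold change of -0.30. No gene of it was higher at an unadjusted p under 0.05 or in DESeq2 either. The lower gene was *pdha1a*, the catalytic subunit that the kinases phosphorylate, at 51.6, 60.8 and 57.5 RPKM in *lmo1*-/- and 43.7 and 40.2 RPKM in TATA/TATA libraries (log2 fold change -0.90, SE 0.19, adjusted p = 0.014 in edgeR). Its call was lost with the authors' library totals (-0.43, adjusted p = 0.092) and without TATA/TATA replicates 1 and 2 (0.12 and 0.15). In the pentose phosphate pathway, which branches at glucose-6-phosphate, 2 of 7 tested genes (28.6%) were higher and 0 lower in edgeR, with a median of -0.04, while 2 were lower at an unadjusted p under 0.05 and in DESeq2. The higher genes were *pgd*, at 29.4, 32.8 and 38.8 RPKM against 87.0 and 84.5 RPKM (log2 fold change 0.89, adjusted p = 0.0072 in edgeR), and the transaldolase gene *taldo1*, at 103, 73.1 and 88.1 RPKM against 226 and 219 RPKM (0.88, adjusted p = 0.01). Without TATA/TATA replicates 1 and 2 these values of p became 0.085 and 0.084 for *pgd* and 0.1 and 0.099 for *taldo1*.

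Glycogen metabolism had 1 higher and 1 lower gene among 10 tested, and these were the paralogs of UDP-glucose pyrophosphorylase. *ugp2b* stood at 1.74, 2.09 and 2.05 RPKM in *lmo1*-/- and 5.41 and 5.48 RPKM in TATA/TATA libraries (log2 fold change 1.01, adjusted p = 0.0089 in edgeR), and *ugp2a* at 4.15, 5.30 and 4.20 against 3.69 and 2.88 RPKM (-0.95, adjusted p = 0.041). Without TATA/TATA replicates 1 and 2 the adjusted p was 0.077 and 0.09 for *ugp2b* and 0.15 and 0.28 for *ugp2a*, and *ugp2a* was also lost without *lmo1*-/- replicate 2 (0.062) and with the authors' library totals (0.19). Of 11 gluconeogenesis genes only 2 were tested, and 0 passed in edgeR, at an unadjusted p under 0.05 or in DESeq2. Among 28 other genes of sugar and lactate handling, 16 were tested, of which 7 (43.8%) were higher and 2 (12.5%) lower, against 19.9% and 16.7% of all tested genes. Of the higher genes, *slc2a3b*, *slc2a6*, *slc16a6b*, *slc16a9a* and *gpd2* stayed under 1 RPKM in every *lmo1*-/- library. *gpd1c* reached 1 RPKM in *lmo1*-/- replicate 2 alone. These genes were tested only through TATA/TATA, so the share of higher genes in this list supports nothing. The largest rises were those of the transporter genes *slc2a3b*, at 0.0720, 0.0608 and 0.0415 RPKM against 2.47 and 3.01 RPKM (log2 fold change 5.09, adjusted p = 0.00042 in edgeR), and *slc2a6*, at 0.0931, 0.0628 and 0.162 RPKM against 4.18 and 3.98 RPKM (4.83, adjusted p = 0.0004), so both were low in *lmo1*-/- tumors and had passed the level filter through TATA/TATA alone. The lower genes were *pfkfb1* (-1.19, adjusted p = 0.0068 in edgeR) and the D-lactate dehydrogenase gene *ldhd* (-0.86, adjusted p = 0.014). With the authors' library totals the adjusted p was 0.055 for *pfkfb1* and 0.23 for *ldhd*, and without TATA/TATA replicate 1 it was 0.094 and 0.16.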

How the data were processed

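Total RNA of sorted EGFP+ cells was depleted of ribosomal RNA and sequenced as strand-specific, paired-end reads of 100 bp. The authors aligned reads with HISAT2 2.1.0 to GRCz10 (danRer10) and counted them per gene with HTSeq against Ensembl version 90. For each library the deposited table gives counts per gene, the exon length that the authors used (base pairs) and RPKM computed by the authors. GATA/GATA tumors were not analysed here.

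Counts were tested with edgeR 4.0.16 (R 4.3.3) by the quasi-likelihood test with TMM scaling, over the 13484 genes that reached 1 RPKM in 2 or more libraries, at a Benjamini-Hochberg adjusted p of 0.05. Fold changes and p-values come from counts, levels from RPKM. The test was also run on simulated data. Alternatives were median-ratio size factors, the authors' library totals, no filter, a mean of at least 5 RPKM, DESeq2 1.42.0, a replicate block, leaving out each library, and the threshold of the study's methods (unadjusted p under 0.05 and log2 fold change of at least 0.45 in size).

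The glycolysis genes and all gene lists were chosen with earlier results of these data known. All 46 genes are described, and of every other pathway list up to 2 genes per direction, those with the largest fold change past the threshold. A planned search of promoters and comparison of paralog proteins was not run, and gene neighbors were read from the RefSeq annotation GRCz12tu, without coordinates.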

Additional observations from a re-analysis of the deposited data

How the results depend on the processing

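Over the 36 tested genes, 381 fold changes were recomputed under other settings. Of these, 309 kept direction and side of the threshold, 40 lost their call, 16 gained one and 16 changed sign, and no gene that had passed changed sign. With 1 fewer library, the genes higher in TATA/TATA (18) numbered 6 to 17, those lower (3) numbered 1 to 4, and the median log2 fold change (0.60) ran from 0.56 to 0.67. The corresponding counts over all genes (2678 higher, 2255 lower) ran from 1405 to 3355 and from 446 to 3101. The low ends came without a TATA/TATA library: 6 and 7 glycolysis genes were then higher, and 14 and 13 of the 21 calls were lost, which leaves a single TATA/TATA library that is assumed to vary like *lmo1*-/-.

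With a mean of at least 5 RPKM, where fewer genes are tested, 11 glycolysis genes were higher, the median was 0.78, and 868 and 960 of all genes were higher and lower. The authors' library totals gave a median of 1.06 and 869 lower genes. DESeq2 and the threshold of the study's methods each called 5 glycolysis genes lower. Replicate numbers did not pair the samples (correlations of same-numbered deviations 0.0246 and 0.00807). With the replicate block, 17 genes were higher and 5 lower, the median was 0.66, *hk1* lost its call (0.63) and *pdk2b* was at 0.75. For DESeq2, the study's threshold and the replicate block, the corresponding shares of all tested genes are not given. Their counts therefore describe the genes and support nothing.

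Changes of sign concerned genes that had not passed, including *slc2a1a* and *pfkpb* with log2 fold changes of -0.40 and -0.38 after TMM scaling. With the authors' library totals they were *slc2a1a* (0.073), *pfkla* (0.35), *pfkpb* (0.083), *pdk2b* (0.23) and *pdk3a* (0.47). *pdk3a* also changed with median-ratio size factors (0.024) and DESeq2 (0.025), and *pdk1* without a filter (-0.0069). With 1 fewer library, the log2 fold change ran from -0.19 to 0.024 for *pfkla*, from -0.071 to 0.21 for *pdk1*, from -0.58 to 0.68 for *pdk2b* and from -0.074 to 0.072 for *pdk3a*.

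In total 7 genes (*eno3*, *gapdh*, *ldha*, *pfkfb3*, *pfkfb4b*, *pfkpa* and *slc2a1b*) passed in each setting that tested them, and 15 passed without each *lmo1*-/- library in turn. Of these, *gapdh*, *pfkfb3* and *slc2a1b* had entered the test through TATA/TATA alone and were not tested at a mean of at least 5 RPKM. The corresponding shares of all tested genes are not given, so these counts describe the genes and support nothing. For genes under 1 RPKM in *lmo1*-/- precision is limited by few reads. Genotype, macrophage marker level and ribosomal protein share move together across these libraries and cannot be told apart.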

Other observations

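A list of the hypoxia pathway, which acts on glycolysis in mammals, held mostly hypoxia-inducible factors and their regulators, with some targets. Of its 15 tested genes, 1 (6.67%) was higher and 3 (20%) were lower in TATA/TATA tumors, with a median log2 fold change of 0.26. Over all tested genes, 19.9% were higher and 16.7% lower, with a median of -0.05. The higher gene was *hif1an*, an inhibitor of hypoxia-inducible factors, at 5.09, 5.67 and 8.63 RPKM in *lmo1*-/- and 15.4 and 13.7 RPKM in TATA/TATA libraries (log2 fold change 0.73, adjusted p = 0.039 in edgeR). Its adjusted p was 0.051 without the level filter, 0.088 without *lmo1*-/- replicate 2, and 0.25 and 0.17 without TATA/TATA replicates 1 and 2. *epas1a*, which encodes a hypoxia-inducible factor, stood at 18.0, 20.3 and 31.2 RPKM against 9.18 and 9 RPKM (-1.79, adjusted p = 0.0023), and the mitophagy gene *bnip3* at 8.75, 8.64 and 12 RPKM against 4.47 and 4.65 RPKM (-1.55, adjusted p = 0.0014). Neither overlapped between genotypes. In the same list, *adma* and *ca9*, known targets of the hypoxia response in mammals, were below the level filter and were named after their values were seen. *adma* had 2, 6 and 7 counts against 130 and 164 (log2 fold change 4.20, adjusted p = 0.0024 in edgeR over every gene with any count), and *ca9* had 1, 1 and 0 counts against 60 and 78 (adjusted p = 0.0034 in the same fit, and 0.059 without TATA/TATA replicate 2).

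Some hypoxia genes separated *lmo1*-/- replicate 3 from its group, as several glycolysis genes did. These were chosen after their values were seen. The prolyl hydroxylase gene *egln3* had 8, 0 and 565 counts in the *lmo1*-/- libraries and 1723 and 1643 counts in the TATA/TATA libraries. The angiogenic factor gene *vegfaa* had 1, 19 and 377 counts against 98 and 59 counts, so its highest library was *lmo1*-/- replicate 3. The neutrophil markers summed to 24.9, 46.8 and 141 RPKM in the *lmo1*-/- libraries, with replicate 3 again the highest, and their part in these values was not tested.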
